A study of Mus musculus with 8 samples.

Results

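Hearts of mice lacking Set7 were compared with wild-type hearts in animals given saline. The comparison holds 4 of the 8 RNA sequencing libraries of the series, taken by the genotype and treatment in their labels: 2 libraries labelled Set7KO with saline and 2 labelled WT with saline. Set7KO is a knockout in the whole animal, bred by crossing heterozygous mice, and WT is wild type. The allele, the part of the gene removed, the strain, the age and the sex are not given in the labels. Saline was given over the same 14 days as isoproterenol, a beta-adrenergic agonist injected under the skin at 60 mg/kg, which the other 4 libraries received (2 WT and 2 Set7KO). Whether the libraries of a group come from different animals is not stated, and the p-values therefore reflect library-to-library spread, which can be technical in part.

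Set7, encoded by Setd7, is a SET domain enzyme that adds a single methyl group to lysine 4 of histone H3, a mark of enhancers and active promoters, and to lysines of transcription factors and other proteins such as p53, RelA and the estrogen receptor. Lysine methylation by Set7 can stabilise a protein, mark it for turnover or change where it binds. In muscle the enzyme has been linked to differentiation of myoblasts, and in heart and vessels to stress and inflammatory gene programmes. The comparison under saline describes how transcripts of knockout and WT hearts differ without an added adrenergic load.

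Levels are given as CPM, the counts scaled to TMM library sizes, the WT libraries first and the Set7KO libraries second, in replicate order. The 4 saline libraries held 27847069 and 34293011 counts (WT) and 28644413 and 51705705 counts (Set7KO). Replicate 2 of Set7KO stood apart from the other 3 in sequence composition. For genes of the lowest of 5 GC classes, with a median GC content of 42.0%, the median log2 difference from the WT mean was 1.09 in that library and 0.27 in Set7KO replicate 1. For the highest class, with a median GC content of 57.8%, it was -0.62 and -0.08. The 2 Set7KO libraries correlated at 0.949 over log2 levels across genes, while Set7KO replicate 2 correlated at 0.975 with a library of another group, WT isoproterenol replicate 1. The codes in the sample titles give Set7KO replicate 1 the letter B and the other 3 saline libraries the letter C. In the isoproterenol groups both Set7KO libraries have the letter A and both WT libraries the letter D. The labels do not say what the letters mean, and after isoproterenol the letter and the genotype cannot be told apart, which bears on every comparison with those libraries. Because of this library, levels of most genes below are given for both Set7KO replicates, and many log2 fold changes also from a fit with offsets for the GC content and length of genes.

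**Figure D1:**
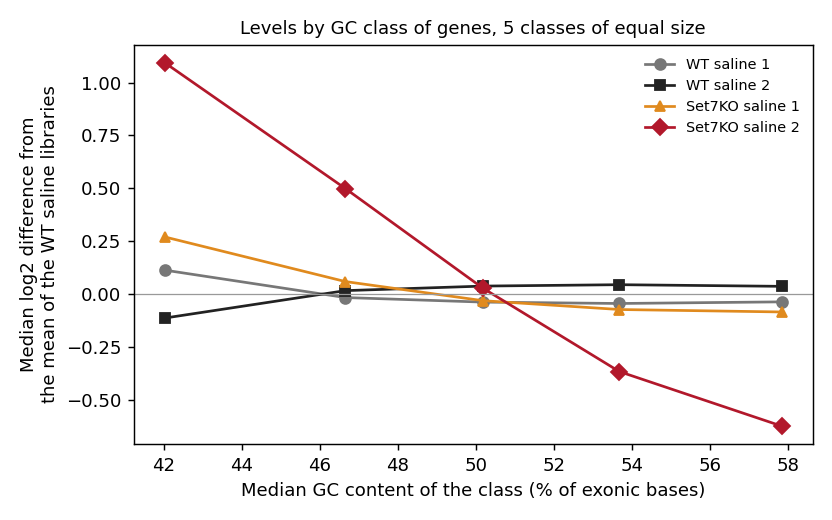
Median log2 difference of each saline library from the mean of the 2 WT saline libraries (vertical axis) for 5 classes of genes ordered by GC content of their exons (horizontal axis, percent). Set7KO replicate 2 runs from 1.09 in the lowest class to -0.62 in the highest, while the other 3 libraries stay between -0.11 and 0.27.

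Setd7 itself (ENSMUSG00000037111, minus strand of chromosome 3 at 51515319 to 51560879 in GRCm38) was the 1 gene whose level changed past the threshold. It stood at 43.7 and 43.0 CPM in the WT libraries and at 4.45 and 5.70 CPM in the Set7KO libraries. Both knockout libraries lay far below both controls, so the transcript level matches the genotype labels. The mean fell from 43.4 ± 0.556 CPM to 5.08 ± 0.883 CPM (SD, n = 2 each), an 8.51-fold difference. The log2 fold change was -3.09 ± 0.24 SE, with an adjusted p of 0.0163 in edgeR's quasi-likelihood test (Benjamini-Hochberg over 17636 genes). In the libraries from isoproterenol-treated hearts Setd7 stood at 58.1 and 72.6 CPM in WT and at 3.79 and 3.92 CPM in Set7KO. The residual counts were not assigned to exons, since the table is summed per gene. The call for Setd7 was kept in edgeR's test when either Set7KO saline library was left out. Its log2 fold change was then -2.93 (without replicate 1) or -3.26 (without replicate 2). With GC and length offsets the call was lost in both of these cases, at -3.17 and -3.18. Without offsets, the call was lost when any other library was left out. Leaving out a WT saline library gave an adjusted p of 0.266 (replicate 1) or 0.199 (replicate 2), leaving out any 1 of the isoproterenol libraries gave 0.0954 to 0.104, and fitting the 4 saline libraries alone gave 0.211, at a log2 fold change of -3.04 to -3.09 in these fits.

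En2, a homeobox gene of the developing midbrain and hindbrain, was detected in knockout libraries only. It had 0 counts in each of the 4 WT libraries of either treatment, and 18 and 24 counts in the Set7KO saline libraries. In CPM the knockout values were 0.585 and 0.478 under saline and 0.873 and 0.659 after isoproterenol. Taking 3 counts per library as the floor, the level under saline was at least 5.03-fold higher in Set7KO than in WT. Its edgeR quasi-likelihood p under saline was 0.000769, with an adjusted p of 0.483. En2 (ENSMUSG00000039095) lies on chromosome 5 at 28165694 to 28172166, away from Setd7, and was chosen for naming after its values were seen. As background, a splice acceptor from En2 is a common part of gene-trap and conditional knockout cassettes. Whether the Set7 allele carries such a cassette is not stated in the labels, and its part in these counts was not tested.

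**Figure D2:**
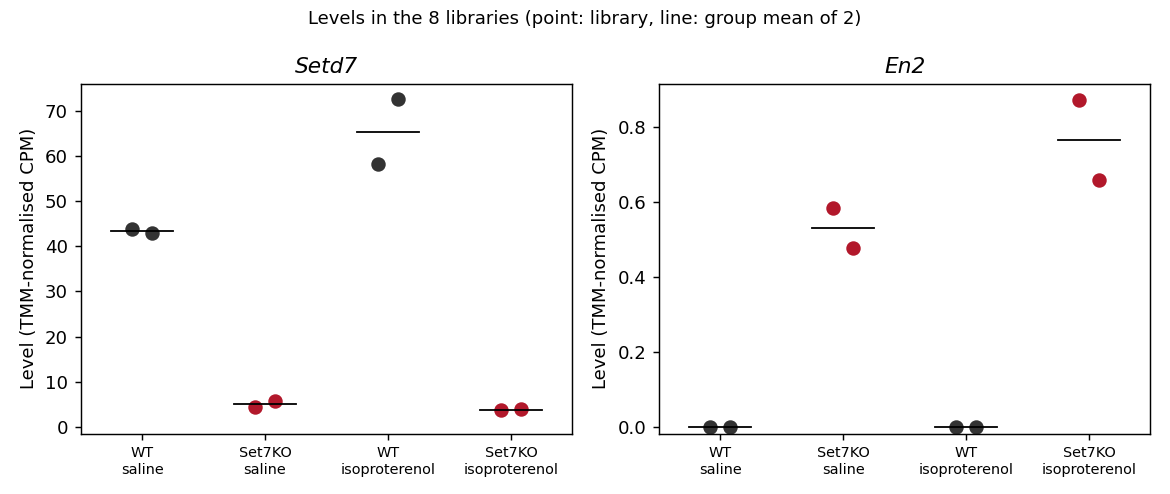
Levels of Setd7 (left) and En2 (right) in TMM-normalised CPM in all 8 libraries, grouped by genotype and treatment, with a line at each group mean of 2. Setd7 lies between 3.79 and 5.70 CPM in the knockout libraries and between 43.0 and 72.6 CPM in WT, and En2 is at 0 in every WT library.

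Few other genes separated the genotypes in both treatments. Of the 17636 genes tested, 6 (0.0340%) had an unadjusted p under 0.05 in the same direction under saline and after isoproterenol with no overlap between the 4 Set7KO and the 4 WT libraries, 4 of them higher (0.0227%) and 2 lower (0.0113%). Besides Setd7 and En2 these were Slpi, a secreted inhibitor of leukocyte proteases, Pglyrp1, an antibacterial protein of neutrophil granules, Trim10, a protein of maturing red cells, and Cib3, a calcium-binding protein. These 4 were chosen after their values were seen and lie at low levels. Slpi stood at 0.187 and 0.464 CPM in WT and at 0.585 and 2.05 CPM in Set7KO. Pglyrp1 stood at 0.523 and 0.563 CPM against 0.780 and 1.97 CPM. Slpi, Pglyrp1 and Trim10 were each highest in Set7KO replicate 2. Cib3 was lower, at 0.784 and 0.597 CPM in WT and 0.163 and 0.319 CPM in Set7KO, with 5 and 16 counts behind the knockout values. None of the 5 genes other than Setd7 passed the adjusted threshold.

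Across the whole table, edgeR called 1 gene (0.00567%) under saline, Setd7, and the next lowest adjusted p was 0.483. At an unadjusted p under 0.05 there were 1381 genes higher (7.83%) and 434 lower (2.46%) in Set7KO. Of the 1381 higher genes, 1250 lay further from WT in Set7KO replicate 2 than in replicate 1, and of the 434 lower genes 336 did. The higher genes were poor in GC, with a median of 42.6%, and the lower genes rich, with a median of 56.7%, against 50.2% for all genes tested. With GC and length offsets the numbers were 799 higher (4.53%) and 345 lower (1.96%), or 6.49% in all, of which 530 and 103 were also in the lists without offsets. DESeq2 called 21 genes, 17 higher and 4 lower, among them Setd7, Cyp1a1, Clock, Pcdhgc5, Xirp2, Kdm7a, Zmym6, Zfp292 and Il1b. The count of edgeR calls was 1030 without Set7KO replicate 1, which leaves replicate 2 alone in its group, and 2 without Set7KO replicate 2. Everything named from here on did not pass edgeR's adjusted threshold and is given as measured values.

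Among genes with a mean of at least 2 CPM over the saline libraries and higher levels in both Set7KO libraries, Cyp1a1 had the smallest p. Cyp1a1, a cytochrome P450 that is the classical target of the aryl hydrocarbon receptor, stood at 3.25 and 4.94 CPM in WT and at 17.3 and 21.4 CPM in Set7KO. The knockout libraries were close to each other and above both controls, a 4.72-fold difference (log2 fold change 2.24 ± 0.37 SE, unadjusted p = 0.000269 and adjusted p = 0.483 in edgeR's quasi-likelihood test). In edgeR's fit with offsets the log2 fold change was 2.29, and DESeq2 gave an adjusted p of 0.000107. After isoproterenol, where no library is shared, Cyp1a1 stood at 4.11 and 6.44 CPM in WT and 5.81 and 3.66 CPM in Set7KO, which overlap. The test of the difference between the treatments had an unadjusted edgeR p of 0.00147 and an adjusted p of 0.0876.

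Clock, the transcription factor that pairs with Bmal1 to drive the circadian cycle, stood at 2.43 and 2.29 CPM in WT and 6.34 and 11.5 CPM in Set7KO. Its log2 fold change was 1.92 ± 0.35 SE, and 1.17 with offsets. Glcci1, a glucocorticoid-induced transcript, was close between replicates, at 1.08 and 1.06 CPM in WT and 2.73 and 3.17 CPM in Set7KO (log2 fold change 1.46 ± 0.30 SE). Xirp2, an actin-binding protein of the intercalated disc, had the highest level among these genes, at 76.6 and 45.9 CPM in WT and 136 and 198 CPM in Set7KO. Its log2 fold change was 1.45 ± 0.33 SE, and 0.86 with offsets. Pcdhgc5, a clustered protocadherin, stood at 1.87 and 1.89 CPM against 11.2 and 4.90 CPM. The gamma protocadherins share their last exons, so the assignment of its reads is uncertain. After isoproterenol Clock, Glcci1 and Xirp2 had the opposite order, with both Set7KO libraries below both WT libraries, as had 36.3% of all genes. Clock then stood at 7.99 and 8.57 CPM in WT and 3.52 and 2.60 CPM in Set7KO. Pcdhgc5 overlapped between the genotypes there.

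The remaining genes with higher levels under the same rule had larger values in replicate 2 than in replicate 1. Kdm7a, a demethylase of repressive histone H3 marks, stood at 2.35 and 1.16 CPM in WT and 4.36 and 9.53 CPM in Set7KO. The zinc finger genes Zmym6 and Zfp292 stood at 1.79 and 1.49 CPM against 3.71 and 8.11 CPM, and at 0.858 and 0.563 CPM against 2.08 and 6.18 CPM. For these 3 genes the log2 fold changes of 1.99, 1.85 and 2.55 became 1.19, 1.33 and 1.73 with offsets. Cops2, a subunit of the COP9 signalosome, and Zdhhc21, a palmitoyltransferase, stood at 4.40 and 2.55 CPM against 7.61 and 13.6 CPM, and at 0.933 and 0.895 CPM against 2.15 and 4.51 CPM. Their log2 fold changes of 1.61 and 1.87 became 0.75 and 0.97 with offsets. Mndal and Ifi203, interferon-inducible proteins of a DNA-binding family, stood at 1.57 and 1.33 CPM against 3.41 and 5.06 CPM, and at 1.12 and 0.762 CPM against 2.24 and 5.54 CPM. Their log2 fold changes of 1.55 and 2.06 became 0.76 and 1.19 with offsets. Both overlap on chromosome 1 and are close paralogs, so their counts cannot be separated with certainty. Kdm7a, Zmym6, Zfp292, Cops2, Zdhhc21, Mndal and Ifi203 had the opposite order after isoproterenol. There both Set7KO libraries lay below both WT libraries, as for 36.3% of all genes.

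**Figure D3:**
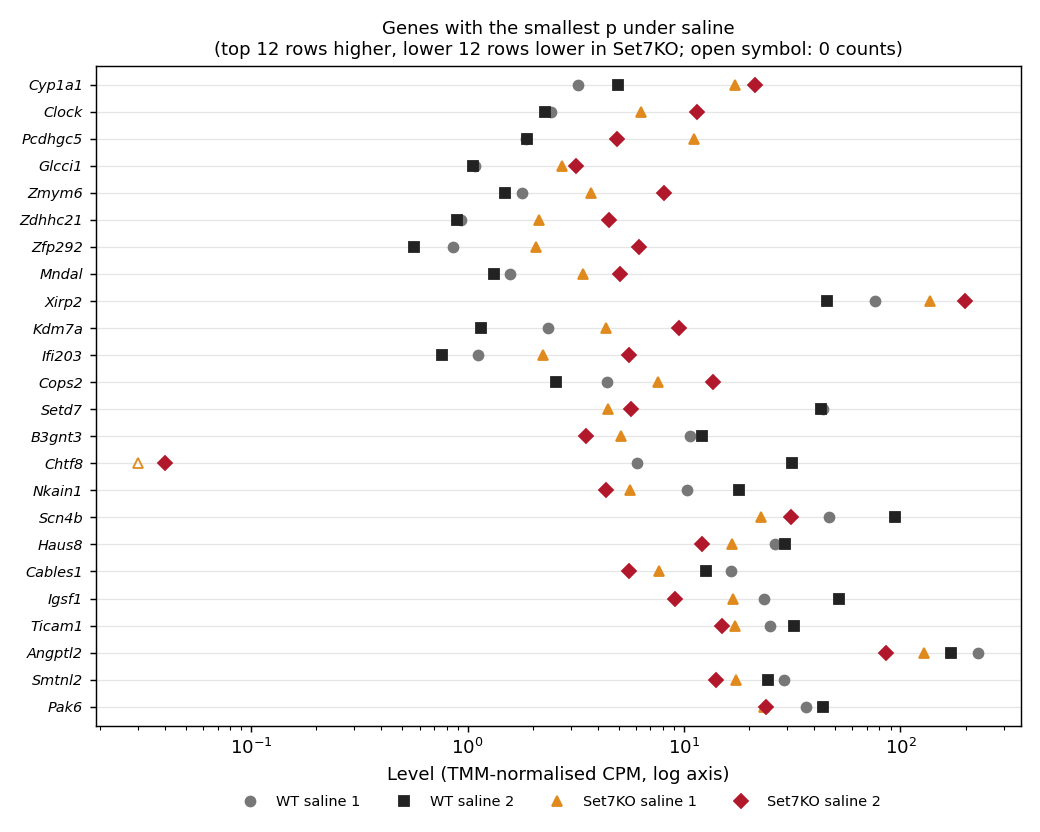
Levels in TMM-normalised CPM (log axis) of the 12 genes with the smallest p higher and the 12 lower in Set7KO, with a symbol for each of the 4 saline libraries and an open symbol for 0 counts. In the upper rows Set7KO replicate 2 lies to the right of replicate 1 in all but Pcdhgc5, and in the lower rows both Set7KO symbols lie to the left of both WT symbols.

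On the lower side, after Setd7, B3gnt3 had the smallest p. B3gnt3, a glycosyltransferase that extends the sugar chains bound by L-selectin, stood at 10.7 and 12.2 CPM in WT and 5.14 and 3.51 CPM in Set7KO (log2 fold change -1.41 ± 0.31 SE). Nkain1, a partner of the sodium-potassium pump, stood at 10.3 and 17.9 CPM against 5.66 and 4.37 CPM (-1.50 ± 0.34). Igsf1, an X-linked membrane glycoprotein, stood at 23.5 and 52.2 CPM against 16.9 and 9.07 CPM, with the WT libraries over 2-fold apart. Haus8, a subunit of the augmin complex of the mitotic spindle, stood at 26.2 and 29.4 CPM against 16.7 and 12.2 CPM (-0.95 ± 0.24, and -1.36 with offsets). Of these 4 genes it alone lay further from WT with offsets than without.

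Angptl2, a secreted angiopoietin-like protein of inflamed and ageing tissue, stood at 229 and 172 CPM in WT and 128 and 86.1 CPM in Set7KO (-0.91 ± 0.25, and -0.58 with offsets). Ticam1, the adaptor of Toll-like receptor 3, stood at 24.9 and 32.1 CPM against 17.3 and 15.0 CPM. Pak6, a p21-activated kinase, stood at 36.6 and 43.8 CPM against 23.4 and 23.9 CPM, and its log2 fold change of -0.76 became -0.25 with offsets. Cables1, a linker of cyclin-dependent kinases, and Smtnl2, a smoothelin-like protein of muscle, stood at 16.6 and 12.6 CPM against 7.64 and 5.58 CPM, and at 29.0 and 24.5 CPM against 17.4 and 14.1 CPM. Their log2 fold changes of -1.14 and -0.77 became -0.65 and -0.49 with offsets. An identifier named Chtf8 (ENSMUSG00000117748) had 162 and 954 counts in WT and 0 and 2 counts in Set7KO. It overlaps a second identifier of the same symbol, which had 2050 and 2585 counts against 2113 and 2824, so how reads were divided between them is uncertain.

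Of 33 interferon-stimulated genes, 30 had a log2 fold change above 0 in the saline knockout, more evenly in replicate 1 than in replicate 2. These genes encode antiviral effectors and GTPases, and are switched on when a cell senses interferon or foreign nucleic acid. All 33 listed members passed the filter on low counts. Under saline 8 of them were higher and 0 lower by an unadjusted p under 0.05, against 7.83% and 2.46% of all genes, and no member passed the adjusted threshold. With offsets 3 were higher and 0 lower, against 4.53% and 1.96%. Both Set7KO libraries lay above both WT libraries for 16 of the 33 and below for 0, against 19.6% and 18.3% of all genes (38.0% in either direction). The median log2 fold change was 0.46, beside 0.02 for all genes, and 0.39 with offsets. Replicate 1 lay above both WT libraries for 27 of the 33, beside 32.8% of all genes, and replicate 2 for 20, beside 42.3%. Replicate 2 lay below both WT libraries for 8 members (24.2%), beside 40.5% of all genes, and replicate 1 for 0. The summed level of the list was 460 and 601 CPM in WT, 741 in replicate 1 and 551 in replicate 2, so in replicate 2 it lay within the WT range. The list median was 0.63 in replicate 1 and 0.45 in replicate 2.

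Gbp4, a guanylate-binding GTPase, stood at 4.63 and 4.01 CPM in WT and 15.5 and 9.27 CPM in Set7KO (log2 fold change 1.52 ± 0.43 SE, and 1.11 with offsets). Gbp6, of the same family, stood at 4.85 and 7.19 CPM against 11.1 and 28.5 CPM (1.72 ± 0.49, and 0.94 with offsets). Oas2, a synthetase of the second messenger that activates RNase L, stood at 10.1 and 8.22 CPM against 18.9 and 21.3 CPM (1.13 ± 0.35, and 1.29 with offsets). Ifit3, an RNA-binding antiviral protein, had nearly equal values within each genotype, 7.61 and 8.85 CPM in WT and 15.7 and 16.0 CPM in Set7KO (0.94 ± 0.30, and 0.79 with offsets). The other 4 members under 0.05, named after their values were seen, were Ifi44, Oas3, Ifit2 and Gbp7, with log2 fold changes of 1.82, 1.62, 0.97 and 1.69. With offsets these were 1.16, 2.04, 0.40 and 1.20. Ifi44 stood at 0.299 and 0.431 CPM against 1.40 and 1.22 CPM, and Oas3 at 0.411 and 1.13 CPM against 1.98 and 2.79 CPM. Ifit2 stood at 2.91 and 2.59 CPM against 5.10 and 5.68 CPM, and Gbp7 at 3.58 and 1.59 CPM against 9.43 and 7.28 CPM. The Gbp, Oas and Ifit families hold close paralogs in clusters, so the division of shared reads among them is uncertain. Stat2 and Irf9, which carry the interferon signal to the nucleus, stood at 25.4 and 24.5 CPM against 40.5 and 26.7 CPM, and at 27.7 and 33.0 CPM against 33.7 and 29.2 CPM.

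After isoproterenol, in libraries that the saline comparison does not use, 31 of the 33 had a log2 fold change of the opposite sign, as did 13980 of the 17636 genes tested. The list had a median of -0.90 there. At an unadjusted p under 0.05, 15 members lay lower and 1 higher, against 12.7% and 7.22% of all genes (19.9% in either direction). Both Set7KO libraries were below both WT libraries for 19 of the 33, against 36.3% of all genes, and 68.2% of all genes did not overlap in either direction. Gbp4 then stood at 12.96 and 27.2 CPM in WT and 3.16 and 4.98 CPM in Set7KO. In the test of the difference between treatments 19 of the 33 had an unadjusted p under 0.05 toward lower values after isoproterenol, against 18.6% of all genes, and the lowest adjusted p over all genes was 0.0876. This opposite order was common in the table as a whole: 1000 genes (5.67%) had an unadjusted p under 0.05 in opposite directions in the 2 treatments, 897 of them (5.09%) higher under saline, and the WT isoproterenol libraries had a GC shift in the same direction as Set7KO saline replicate 2.

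The interferon-stimulated response element, here the letters GAAANNGAAA on either strand, is a site bound by interferon regulatory factors. RefSeq promoters of 300 bases (250 before to 50 after the start, GRCm38.p6) were matched by symbol for 24 of the 33 members, and 15 of these 24 (62.5%) held the motif, beside 3.49% of all 27025 promoters. Of the 11 matched members with both Set7KO saline libraries above WT, 7 (63.6%) held it, near the 62.5% of the list. Because the list names interferon-stimulated genes, its high share does not bear on the genotypes. The promoters of the 4 members with the motif and the smallest saline p are shown as examples, with the motif in capitals. All are written on the strand of the gene, 5′ to 3′. They lie at chr19:34583279-34583578 (Ifit3, plus strand), chr5:120777610-120777909 (Oas3, minus strand), chr3:142530086-142530385 (Gbp7, plus strand) and chr3:142559794-142560093 (Gbp3, plus strand).
Ifit3: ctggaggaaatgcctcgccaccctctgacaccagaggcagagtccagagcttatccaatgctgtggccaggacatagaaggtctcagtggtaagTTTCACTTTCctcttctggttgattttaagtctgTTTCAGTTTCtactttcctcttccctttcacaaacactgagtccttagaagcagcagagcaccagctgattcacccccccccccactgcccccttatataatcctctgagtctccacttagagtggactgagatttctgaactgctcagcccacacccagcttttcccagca
Oas3: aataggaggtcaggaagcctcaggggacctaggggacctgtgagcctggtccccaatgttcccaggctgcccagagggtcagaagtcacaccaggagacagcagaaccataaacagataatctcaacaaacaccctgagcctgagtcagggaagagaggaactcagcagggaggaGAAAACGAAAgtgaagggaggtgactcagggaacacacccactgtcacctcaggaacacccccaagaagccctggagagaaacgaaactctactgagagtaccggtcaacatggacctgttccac
Gbp7: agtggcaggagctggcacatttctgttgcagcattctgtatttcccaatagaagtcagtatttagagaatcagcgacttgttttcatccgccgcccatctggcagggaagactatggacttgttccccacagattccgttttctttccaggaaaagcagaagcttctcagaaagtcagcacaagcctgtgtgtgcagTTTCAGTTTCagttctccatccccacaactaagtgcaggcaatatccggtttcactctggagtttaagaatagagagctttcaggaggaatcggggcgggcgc
Gbp3: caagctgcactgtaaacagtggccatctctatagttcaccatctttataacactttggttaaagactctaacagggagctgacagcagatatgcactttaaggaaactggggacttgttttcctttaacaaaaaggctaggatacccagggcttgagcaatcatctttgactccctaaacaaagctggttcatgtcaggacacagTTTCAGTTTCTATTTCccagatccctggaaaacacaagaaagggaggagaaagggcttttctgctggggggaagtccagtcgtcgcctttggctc
The Oas3 promoter holds the motif on the strand shown, at 1 place. In the other 3 promoters it lies on the opposite strand and so reads TTTCNNTTTC, at 2 separate places in Ifit3, at 1 in Gbp7 and at 2 overlapping places in Gbp3. A match describes the letters only. Gbp3, at 7.24 and 6.26 CPM in WT and 15.7 and 9.11 CPM in Set7KO, had an unadjusted edgeR p of 0.0818.

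**Figure D4:**
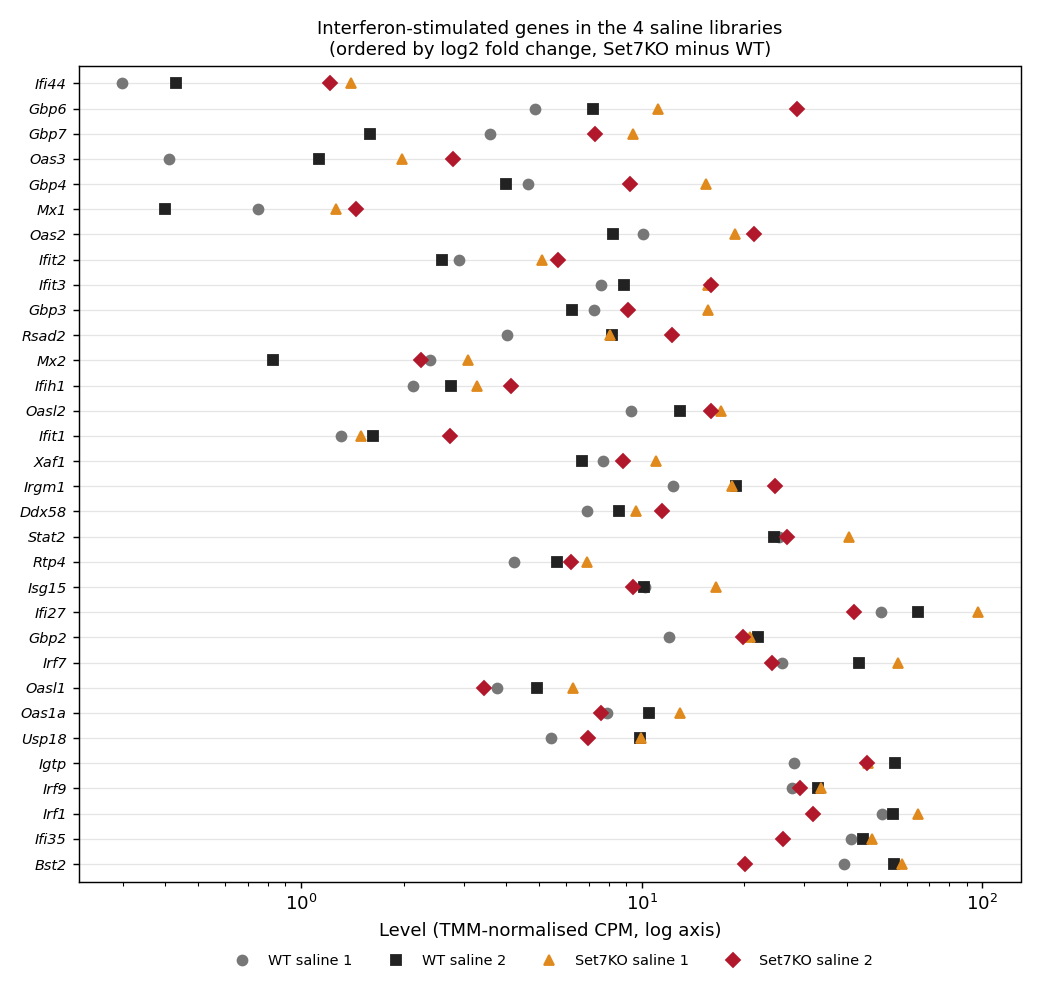
Levels in TMM-normalised CPM (log axis) of 32 of the 33 interferon-stimulated genes in the 4 saline libraries, ordered by log2 fold change. In the upper rows both Set7KO symbols lie to the right of both WT symbols, and for some, such as Irf7 and Ifi27, Set7KO replicate 1 alone does.

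Il1b, the cytokine of activated myeloid cells, had near-equal replicates, at 0.485 and 0.331 CPM in WT and 2.60 and 2.71 CPM in Set7KO. The log2 fold change was 2.70 ± 0.45 SE, with an unadjusted p of 0.000264 and an adjusted p of 0.483 in edgeR's quasi-likelihood test. After isoproterenol it stood at 0.454 and 0.231 CPM in WT and 0.783 and 0.622 CPM in Set7KO. Of the 27 measured NF-kB and cytokine genes, 2 were higher and 0 lower under saline at an unadjusted p under 0.05. This stands against 7.83% and 2.46% of all genes, and the list median was 0.00.

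Neutrophil transcripts were far more abundant in Set7KO replicate 2 than in the other saline libraries, and most measured markers were also above WT in replicate 1. S100a9, a calcium-binding alarmin of neutrophils, stood at 0.896 and 2.45 CPM in WT and 4.19 and 65.7 CPM in Set7KO. Mmp8, the neutrophil collagenase, had 214 counts in Set7KO replicate 2 and 0 in the other 7 libraries, and Ly6g and Camp had 29 and 30 counts there and 0 elsewhere. Of the 11 listed neutrophil markers 6 passed the filter. Their summed level was 6.31 and 9.12 CPM in WT, 12.2 in Set7KO replicate 1 and 118.8 in replicate 2. At an unadjusted edgeR p under 0.05, 5 were higher and 0 lower, against 7.83% and 2.46% of all genes. With offsets the numbers were again 5 and 0, against 4.53% and 1.96%. Replicate 1 lay above both WT libraries for 5 of the 6, beside 32.8% of all genes. Erythroid genes also had their highest sum in replicate 2. The 8 measured of 11 listed genes summed to 3796 and 4290 CPM in WT, 4265 in Set7KO replicate 1 and 10594 in replicate 2. The beta globin gene Hbb-bs stood at 1242 and 1333 CPM against 1424 and 3665 CPM, and Alas2, the first enzyme of red cell heme synthesis, at 25.2 and 35.7 CPM against 36.4 and 149 CPM. Whether blood in this sample has a part in other differences was not tested. In bulk tissue, more cells of a type and more RNA per cell cannot be told apart.

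Other leukocyte lists did not follow as a whole. Of 17 measured macrophage markers, 1 was higher and 0 lower by an unadjusted p under 0.05, against 7.83% and 2.46% of all genes. Their median was 0.08. B cell and T cell markers had a median of -0.07 over 20 genes, with 1 higher and 0 lower. The higher gene was Ptprc, at 1.68 and 1.23 CPM in WT against 3.35 and 4.66 CPM in Set7KO (log2 fold change 1.47, and 0.66 with offsets). Genes of MHC class I and II presentation had 0 of 17 members under 0.05, against 10.3% of all genes in either direction. Cd74, the invariant chain, stood at 212 and 396 CPM in WT and 247 and 84.5 CPM in Set7KO.

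Sarcomere genes were mostly at or below WT levels, by small amounts. Of 18 genes, 16 had a log2 fold change below 0, and both Set7KO libraries lay below both WT libraries for 7 and above for 0, against 18.3% and 19.6% of all genes. None had an unadjusted p under 0.05, against 10.3% of all genes in either direction, and the median was -0.26, or 0.05 with offsets. Myh6 and Myh7, the alpha and beta myosin heavy chains whose ratio shifts in stressed hearts, had log2 fold changes of -0.22 ± 0.19 SE and -0.01 ± 0.18. Myh7 stood at 6511 and 7045 CPM in WT and 6475 and 6944 CPM in Set7KO. Nppb, the B-type natriuretic peptide raised by wall stress, stood at 213 and 468 CPM against 398 and 67.5 CPM, and Acta1, skeletal actin, at 1044 and 1413 CPM against 919 and 75.9 CPM. In both genes the low knockout value was replicate 2. The 20 stress and fetal genes of the cardiomyocyte had a median of -0.34, from -0.02 in replicate 1 and -0.72 in replicate 2.

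Channel genes of the cardiac action potential lay below both WT libraries in both Set7KO libraries for 9 members, and above for 0. The shares over all genes were 18.3% and 19.6%. Of 24 measured genes of the list, 5 were lower and 0 higher at an unadjusted p under 0.05, against 2.46% and 7.83% of all genes. With offsets 1 was lower and 0 higher, against 1.96% and 4.53%. Scn4b, a beta subunit of the cardiac sodium channel, stood at 46.6 and 94.0 CPM in WT and 22.8 and 31.1 CPM in Set7KO (log2 fold change -1.39 ± 0.34 SE, and -0.96 with offsets). Hcn2, a pacemaker channel, stood at 51.99 and 99.0 CPM against 41.96 and 27.9 CPM (-1.11 ± 0.37, and -0.62 with offsets). Kcnh2, the channel of the rapid delayed rectifier current, was 165 and 162 CPM against 120.5 and 121 CPM, closely paired within genotypes (-0.44 ± 0.19). Kcnq1, of the slow delayed rectifier, stood at 78.0 and 107 CPM against 69.4 and 59.9 CPM (-0.52) and was chosen after its value was seen. With offsets Kcnh2 and Kcnq1 were at 0.16 and -0.06. Both WT saline libraries were above both isoproterenol WT libraries in Scn4b (13.8 and 16.2 CPM there).

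Calcium handling genes split by replicate. Pln, the phospholamban brake on the calcium pump, stood at 551 and 571 CPM in WT, 650 in Set7KO replicate 1 and 1547 in replicate 2. Trdn, triadin of the calcium release complex, stood at 11.4 and 10.5 CPM against 15.3 and 67.6 CPM. Jph2, junctophilin, which holds the release units to the surface membrane, was lower in both, at 1051 and 1468 CPM against 913 and 844 CPM (-0.52 ± 0.23, and 0.07 with offsets). The median of the 21 genes was 0.08.

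Metabolic genes were mixed. Fatty acid uptake and oxidation genes had a median of -0.06 over 30 members. At an unadjusted p under 0.05 there were 1 higher and 1 lower, against 7.83% and 2.46% of all genes. Pdk4, a pyruvate dehydrogenase kinase and a PPAR target, stood at 149 and 188 CPM in WT, 132 in Set7KO replicate 1 and 844 in replicate 2. Ucp2, a mitochondrial carrier, was lower in both knockout libraries, at 129.9 and 131 CPM against 80.0 and 88.6 CPM (-0.63 ± 0.20 SE, and -0.23 with offsets). Glycolysis and glycogen genes had 4 of 34 identifiers lower and 1 higher, against 2.46% and 7.83% of all genes. With offsets there was 1 of each, against 1.96% and 4.53%. Pygb, a glycogen phosphorylase, stood at 1701 and 2106 CPM against 990.0 and 1357 CPM (-0.70 ± 0.24, and -0.29 with offsets). Nuclear-encoded respiratory chain subunits had a median of -0.10 over 50 identifiers. Angptl4, the lipoprotein lipase inhibitor, and Scd4, a stearoyl-CoA desaturase, had log2 fold changes of 0.23 ± 0.45 and -0.36 ± 0.26.

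Genes of the mitochondrial genome stood higher before any correction for composition. Of 15 genes, 6 were higher and 0 lower by an unadjusted p under 0.05, against 7.83% and 2.46% of all genes, and the median was 0.62. Their share of all counts was 1.85% and 2.12% in WT and 3.02% and 3.81% in Set7KO. mt-Atp8 stood at 36.2 and 38.4 CPM in WT and 74.2 and 60.9 CPM in Set7KO, and mt-Co2 at 1354 and 1712 CPM against 2204 and 3486 CPM. These genes are poor in GC, with a median of 36.0%, and with offsets the list median turned to -0.42. There 0 genes were higher and 4 lower, against 4.53% and 1.96% of all genes.

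The fibrillar collagens were lower in 1 knockout library, and some other matrix and fibroblast genes in both. Col1a1, the main fibrillar collagen chain, stood at 163 and 253 CPM in WT, 266 in Set7KO replicate 1 and 65.6 in replicate 2, and Col3a1 at 270 and 378 CPM against 408 and 101 CPM. The median of 47 collagen and matrix genes was 0.13 in replicate 1 and -1.11 in replicate 2. Postn, periostin of activated fibroblasts, had overlapping levels, at 4.74 and 6.93 CPM against 8.68 and 4.47 CPM. Cpxm2, a secreted carboxypeptidase-like protein, was lower in both libraries, at 31.8 and 40.2 CPM against 23.6 and 23.3 CPM (-0.62 ± 0.22 SE, and -0.32 with offsets). Ccn2, the matricellular protein also called connective tissue growth factor, was lower in both as well, at 90.1 and 56.2 CPM against 41.2 and 40.5 CPM (-0.84 ± 0.26, and -0.84 with offsets). Resident fibroblast markers had 3 of 16 members lower and 0 higher, against 2.46% and 7.83% of all genes. With offsets 1 was lower and 0 higher, against 1.96% and 4.53%. The 3 lower members without offsets were Lamc1, a laminin chain, Smoc2, a secreted calcium-binding protein, and Cd248, endosialin. Their log2 fold changes were -0.60, -0.64 and -1.03, and -0.33, -0.61 and -0.67 with offsets. Each lay lowest in Set7KO replicate 2, Cd248 at 25.2 and 32.0 CPM in WT against 21.1 and 7.08 CPM. In TGF-beta signalling 5 of 27 genes were higher and 0 lower, against 7.83% and 2.46% of all genes. With offsets 2 were higher and 0 lower, against 4.53% and 1.96%. Among the 5 were the receptor Tgfbr1 at 2.31 and 0.928 CPM against 2.63 and 5.46 CPM and the repressor Skil at 5.26 and 1.72 CPM against 7.28 and 9.31 CPM. Their log2 fold changes of 1.33 and 1.25 were both 0.65 with offsets. The list median was -0.16.

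Some differences rested on 1 control library. Nppa, the atrial natriuretic peptide, stood at 1606 CPM in WT replicate 1 and at 306 in WT replicate 2, against 359 and 195 CPM in Set7KO. Sln and Myl7, sarcolipin and the atrial regulatory light chain, stood at 90.3 and 445.3 CPM in WT replicate 1 and at 0.928 and 5.30 CPM in WT replicate 2. Set7KO replicate 1 also had more of Myl7 than replicate 2, at 58.0 against 2.77 CPM, and the share of atrial tissue is not stated for any library. Without WT replicate 1 the log2 fold change of Nppa was -0.15, beside -1.79 with it. Dbp, a clock output with a steep daily rhythm, stood at 378 CPM in WT replicate 1, 47.6 in WT replicate 2 and 46.8 and 58.3 in Set7KO. Arntl, which encodes Bmal1 and peaks opposite to Dbp, stood at 0.896 CPM in WT replicate 1 and at 18.0, 15.5 and 6.38 CPM in the other 3. Arntl and Myl7 were chosen after their values were seen. The hour of collection is not given in the labels, and its part in the values of Clock was not tested.

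Among the enzymes related to Set7, few members differed. Of 23 methyltransferases and demethylases of histone H3 lysine 4 and SMYD enzymes, Setd7 was the member that changed. Kmt2e, a PHD and SET domain protein, was the 1 higher member at an unadjusted p under 0.05, against 7.83% of all genes. It stood at 17.7 and 16.1 CPM against 20.997 and 32.3 CPM. Kmt2c, which methylates lysine 4 at enhancers, stood at 15.1 and 15.9 CPM against 16.7 and 37.7 CPM. With offsets 1 of the 23 was higher, Kmt2c, and 2 were lower, against 4.53% and 1.96% of all genes. Of 18 measured genes for proteins reported as Set7 substrates, 0 had an unadjusted p under 0.05, against 10.3% of all genes in either direction. With offsets 0 were higher and 1 lower. E2f1 stood at 3.32 and 3.05 CPM against 2.89 and 1.24 CPM. Wnt10a had 0 counts in all 4 saline libraries. In the unfolded protein response list 2 of 22 genes were higher, near the 7.83% of all genes. With offsets 0 were higher and 1 lower, against 4.53% and 1.96%. Hsp90b1, a chaperone of the endoplasmic reticulum, was even between replicates at 65.9 and 82.9 CPM against 127 and 126 CPM (0.77 ± 0.20, and 0.20 with offsets).

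Genes around Setd7 lay on both sides of WT. Of 167 genes within 5 Mb, 39 passed the filter, and at an unadjusted p under 0.05 there were 3 higher and 0 lower, against 7.83% and 2.46% of all genes. The median was 0.08. Both Set7KO libraries lay above WT for 7 of them and below for 8, against 19.6% and 18.3%. Naa15, a subunit of the N-terminal acetyltransferase and a near neighbour on chromosome 3, was among the 3 higher genes. It stood at 3.47 and 2.75 CPM against 4.45 and 11.0 CPM (log2 fold change 1.32, and 0.55 with offsets). With offsets 1 of the 39 genes was higher and 0 lower, against 4.53% and 1.96% of all genes. Supt20, of the SAGA complex, and Maml3, a Notch coactivator, were not under 0.05, at unadjusted edgeR p-values of 0.0544 and 0.113. Supt20 stood at 9.18 and 4.44 CPM against 11.7 and 11.9 CPM, and Maml3 at 6.23 and 5.40 CPM against 3.45 and 4.66 CPM.

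The remaining lists are shown by their medians. Immediate early genes had 3 of 23 members lower and 0 higher, against 2.46% and 7.83% of all genes. With offsets 1 was lower and 0 higher, against 1.96% and 4.53%. The median of this list was 0.02 in Set7KO replicate 1 and -1.23 in replicate 2. Endothelial, smooth muscle and resident fibroblast markers had medians of 0.03, 0.00 and -0.04 in replicate 1 and -0.59, -0.64 and -0.65 in replicate 2. Cytosolic ribosomal proteins and MHC genes had the same order, at 0.00 and 0.12 against -0.43 and -1.10. The 4 measured Y-linked genes were higher in both knockout libraries, as were 19.6% of all genes. Among them Kdm5d stood at 4.07 and 3.88 CPM against 5.75 and 11.9 CPM. They have a median GC content of 36.2%. Their median log2 fold change was 1.49 under saline, 0.64 with offsets, and -1.64 after isoproterenol. Xist, the RNA of the inactive X, had at most 15 counts in a library. Of the lists with 10 or more measured genes, none other than those of interferon-stimulated and mitochondrial genome genes had a median above 0.3 in both replicates. Smaller lists did so with larger medians in replicates 1 and 2. These were 1.27 and 5.92 for 6 neutrophil markers, 1.20 and 1.88 for the 4 Y-linked genes, and 1.44 and 0.97 for 2 neighbouring tissue markers.

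**Figure D5:**
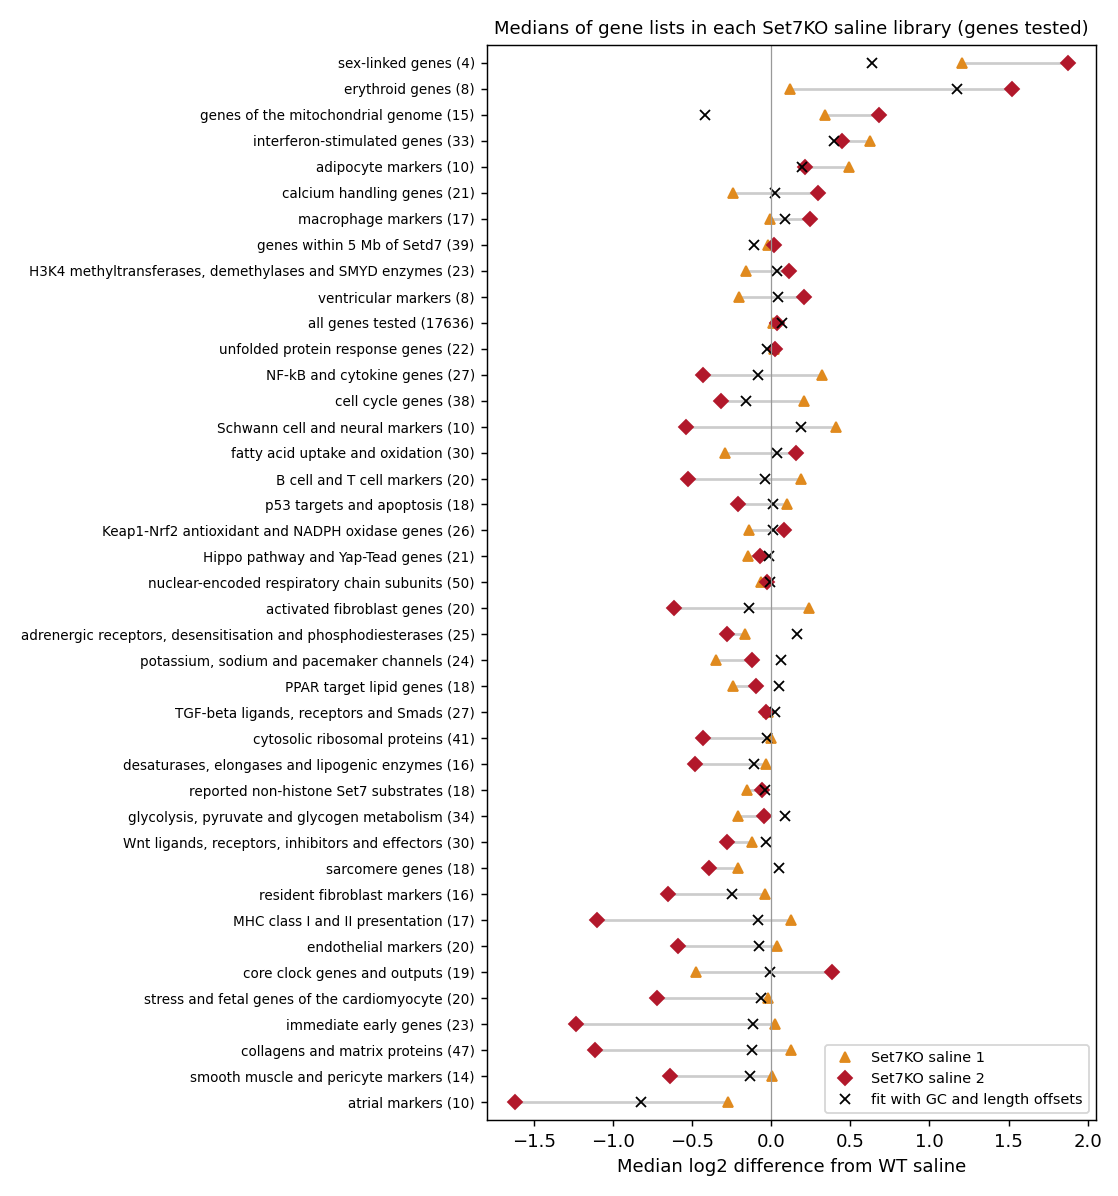
Median log2 difference from WT saline of each gene list in Set7KO replicate 1 (triangle) and replicate 2 (diamond), with the median of the fit with GC and length offsets (cross) and the number of genes tested in brackets. Matrix, immediate early and MHC genes lie near 0 in replicate 1 and below -1 in replicate 2, while interferon-stimulated genes lie between 0.39 and 0.63 in all 3 readings; neutrophil, epicardial and neighbouring tissue markers are left out.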

How the data were processed

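Polyadenylated RNA from mouse hearts was extracted with TRIzol and sequenced as single reads from stranded libraries, per the labels' protocols. The authors deposited a table of whole-number counts per Ensembl gene for 8 libraries, not normalised. The submitters' processing notes name HISAT2, StringTie, edgeR and the build GRCm38, and the handling of reads shared between genes is not stated. Gene names came from GENCODE M21 (55227 of 55487 identifiers matched), and promoter sequences from RefSeq, GRCm38.p6.

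Of 29066 genes with a count, 17636 passed filterByExpr. Counts were scaled by TMM and tested with edgeR 4.0.16 (quasi-likelihood, R 4.3.3), with 1 mean per group over all 8 libraries and Benjamini-Hochberg adjustment at 0.05. Alternatives used DESeq2 1.42.0, limma 3.58.1, other scalings and filters, GC and length offsets, and each library left out. The scripts were tested on simulated data. Total counts were 27847069 to 51705705 in the saline libraries, where 3 counts equal 0.0598 to 0.112 CPM, a floor that covers counting error only.

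The genes named were Setd7, genes past the threshold filled up to 12 in each direction with the smallest p among genes whose groups did not overlap and whose saline mean was at least 2 CPM (gene models left out), genes separating the genotypes in both treatments, up to 4 of each list and up to 6 within 5 Mb of Setd7 (ranked by p, mean level 1 CPM or more), and 13 heart and Wnt, lipid or matrix genes. Members and lists were chosen with earlier results of these data known. Some genes that this rule or a list holds are not reported here by name.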

Additional observations from a re-analysis of the deposited data

How the results depend on the processing

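Depth limits genes near the floor of 3 counts, such as En2 and Trim10. Precision is further limited by 2 libraries per group and by Set7KO saline replicate 2, whose composition differs. The log2 fold change of Setd7 lay between -3.26 and -2.93 under all 20 alternatives. Of 1736 values for 87 genes, 1622 kept direction and side of the threshold, and 54 turned in sign. Setd7 alone was past the threshold in the main fit, so for the other genes keeping their side meant staying uncalled. No paired analysis was possible because the replicate numbers were given in accession order and the labels pair no samples.

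edgeR called 1 gene under saline. The count was 19 with no filter on low counts, 21 with DESeq2, 0 with limma-voom and sample quality weights, 0 with the 4 saline libraries alone, 0 to 1030 with a library left out, and 0 with offsets and without Set7KO saline replicate 1. After isoproterenol the count of 1 became 3 with no filter, 297 with DESeq2, 932 with quality weights and 0 to 2 with a library left out. For the difference between treatments the count of 0 became 1686 with no filter, 2321 with DESeq2 and 0 to 5778 with a library left out (5778 without Set7KO saline replicate 1). With offsets that count was 140 without replicate 1 and 1 without replicate 2. The cause was not tested.

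Some log2 fold changes turned in sign. With GC and length offsets they were 0.019 for Col1a1, 0.43 for Myh7, -0.65 for Postn, 0.065 for Jph2, 0.16 for Kcnh2, 0.26 for Myh6, -0.033 for mt-Co2 and -0.070 for mt-Atp8. With offsets and without Set7KO saline replicate 1 they were 0.14 for Kcnq1, 0.71 for Myh7, -1.62 for Postn, -0.13 for Hsp90b1, 0.056 for Pak6, 0.36 for Jph2, 0.50 for Kcnh2, 0.12 for Pygb, 0.64 for Myh6, 0.058 for Ucp2, -0.62 for Arntl, -0.0054 for Gbp3, -0.056 for mt-Co2 and -0.60 for mt-Atp8. With offsets and without replicate 2 they were 0.58 for Col1a1, -0.47 for Pdk4, 0.14 for Myh7, -0.29 for Pln, -0.0063 for Trdn, 0.53 for Col3a1, -0.33 for Angptl4 and 0.25 for Nppb. Myh7 was at 0.066 with upper-quartile scaling, 0.022 with no filter, 0.0030 with a filter of 1 CPM and 0.035 with the saline libraries alone.

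With a library left out, the ranges that crossed 0 were -1.67 to 0.38 for Col1a1, -1.69 to 0.36 for Col3a1, -0.33 to 2.32 for Pdk4, -0.075 to 0.055 for Myh7, -0.39 to 0.60 for Postn, -2.83 to 0.14 for Dbp, -4.87 to 1.98 for Sln, -6.34 to 2.51 for Myl7, -0.40 to 0.81 for Angptl4, -0.078 to 0.19 for Irf9, -0.73 to 3.61 for Arntl and -2.33 to 0.26 for Nppb.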
